A study of Mus musculus with 6 samples.

Results

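The 10 genes described here are a set of the bone morphogenetic protein (BMP) pathway together with the Id family. They comprise the ligand genes Bmp4 and Bmp7, the type I receptor genes Bmpr1a and Bmpr1b, the inhibitory Smad genes Smad6 and Smad7, and Id1, Id2, Id3 and Id4. They were chosen by gene symbol and not by a measured value, although with earlier results of these data known. All 10 were found among the 24421 gene symbols of the count table, and all 10 passed the filter on low counts that left 14417 genes for testing. On GRCm38 the genes span, by GENCODE M21, chr2:152736251-152737410 (Id1), chr12:25093799-25097140 (Id2), chr4:136143497-136145755 (Id3), chr13:48261228-48266026 (Id4), chr14:46383520-46390669 (Bmp4), chr2:172868012-172940321 (Bmp7), chr14:34410734-34503341 (Bmpr1a), chr3:141837136-142169425 (Bmpr1b), chr9:63953076-64022059 (Smad6) and chr18:75367529-75395935 (Smad7).

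The cells were primary neural stem cells from the subventricular zone, the neurogenic lining of the lateral ventricles, taken from C57BL/6 mice at postnatal day 60 and described as wild type. All cultures of both groups contained FGF2 and EGF, each at 20 ng/ml, with a medium change after 24 h. The treated group received 20 µM PluriSIn#2, which the series describes as an inhibitor of topoisomerase IIA, for 3 days, and the control group received DMSO. Each group had 3 libraries, and the label field for treatment carries other numbers after PluriSIn for treated replicates 2 and 3 than their titles do. Since no label ties a replicate to a culture or animal of its own, each p-value reflects the spread of these libraries alone, which may be technical.

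BMP ligands are secreted dimers that bring together type I and type II serine/threonine kinase receptors on the cell surface. The type I receptor phosphorylates Smad1, Smad5 or Smad9, which join Smad4 and enter the nucleus, where Id genes, Smad6 and Smad7 are among the classic targets. Id proteins have a helix-loop-helix domain but no basic DNA-binding region, and they bind E proteins and thereby keep other basic helix-loop-helix (bHLH) factors from DNA. Smad6 and Smad7 feed back on the receptors. In the adult subventricular zone, BMP signals favour glial over neuronal fates, secreted antagonists such as noggin counter them, and Id genes are known for maintaining stem cells.

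Library totals ran from 16670962 to 19241869 counts. Levels are given as CPM (read counts brought to a common library total, with scaling by the trimmed mean of M-values, TMM) and as mean ± SD over 3 libraries. Top2a, which encodes a topoisomerase IIA enzyme, stood at 878 ± 21.2 CPM in DMSO and at 6.01 ± 1.29 CPM in PluriSIn#2; a transcript level does not check that the enzyme was inhibited. All 10 neural stem cell markers were expressed, 3 of them higher after treatment, such as Vim (2668 and 3059 CPM), and 7 lower, such as Nes (1186 and 437 CPM). All 8 astrocyte markers rose, their summed level going from between 3509 and 3543 CPM to between 6620 and 6648 CPM. Summed markers of 5 other cell types were higher as well. Microglia and macrophage markers (10 of 10 tested genes higher) went from between 7.71 and 8.57 to between 173 and 179 CPM, with Lyz2 taking the most reads and Trem2 at 0 reads in DMSO and 543 in PluriSIn#2. Fibroblast and mural markers (8 of 10 higher, 1 lower) went from between 180 and 187 to 324 CPM, and the gene with the most reads, Cspg4, also known from oligodendrocyte precursors, fell. Endothelial markers, led by Cdh5 (6 of 7 higher), went from between 5.33 and 5.99 to between 28.8 and 32.8 CPM. Choroid plexus markers, led by Ttr (6 of 6 higher), went from between 11.9 and 13.3 to between 519 and 537 CPM, and ependymal markers, led by Foxj1 (6 of 6 higher), from between 38.0 and 40.3 to between 155 and 156 CPM. Each of these rises in the sum is mainly that of 1 gene, Ttr (1.89 and 500 CPM) or Foxj1 (34.1 and 144 CPM). The untested ependymal gene Spag17 did not rise (0.439 and 0.391 CPM). Oligodendrocyte lineage markers (7 of 7 lower) fell from between 1107 and 1157 to between 661 and 664 CPM. Of 8 neuroblast and neuron markers, 4 were higher and 2 lower. Many markers of the microglia, choroid plexus, endothelial and ependymal lists had few reads in DMSO and could be tested on their treated counts alone. So could some of the fibroblast and mural list, such as Dcn (7 reads in DMSO) and Lum (2 reads). The counts of higher markers are therefore no support for a rise of those lists. Among all genes tested, 41.7% were called higher and 40.9% lower. In bulk libraries, fewer or more cells of a type and less or more RNA per cell cannot be told apart.

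PluriSIn#2 against DMSO compares transcript levels after 3 days with the compound and with DMSO. All 4 Id genes, both inhibitory Smads and Bmp4 were higher in the treated cells, Bmp7 was lower, and both type I receptors and Id3 moved little. Under the quasi-likelihood test of edgeR, with p-values adjusted over all genes tested by the Benjamini-Hochberg method and a threshold of 0.05, 9 of the 10 genes were called higher and 1 lower. Over all genes the same test called 82.6%, with 41.7% higher and 40.9% lower, so being called does not set these genes apart. Their median log2 fold change was 0.87, against 0.01 over all genes tested. At least 2-fold rises were called for 4 of the 10 (Id2, Id4, Bmp4 and Smad6), against 16.3% of all genes. Between groups, the CPM ranges were separate for 9 of the 10, against 82.7% of all genes, with 8 higher (41.8% of all genes) and 1 lower (40.9%). DESeq2 called 9 of the 10, against 59.5% of the 19218 genes with a read. This set includes genes that the filter on low counts removed, so its share is not comparable with the 82.6%. With treated replicate 1 alone, assumed to vary like the DMSO libraries, edgeR again called 9 of the 10 higher and 1 lower.

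**Figure D1:**
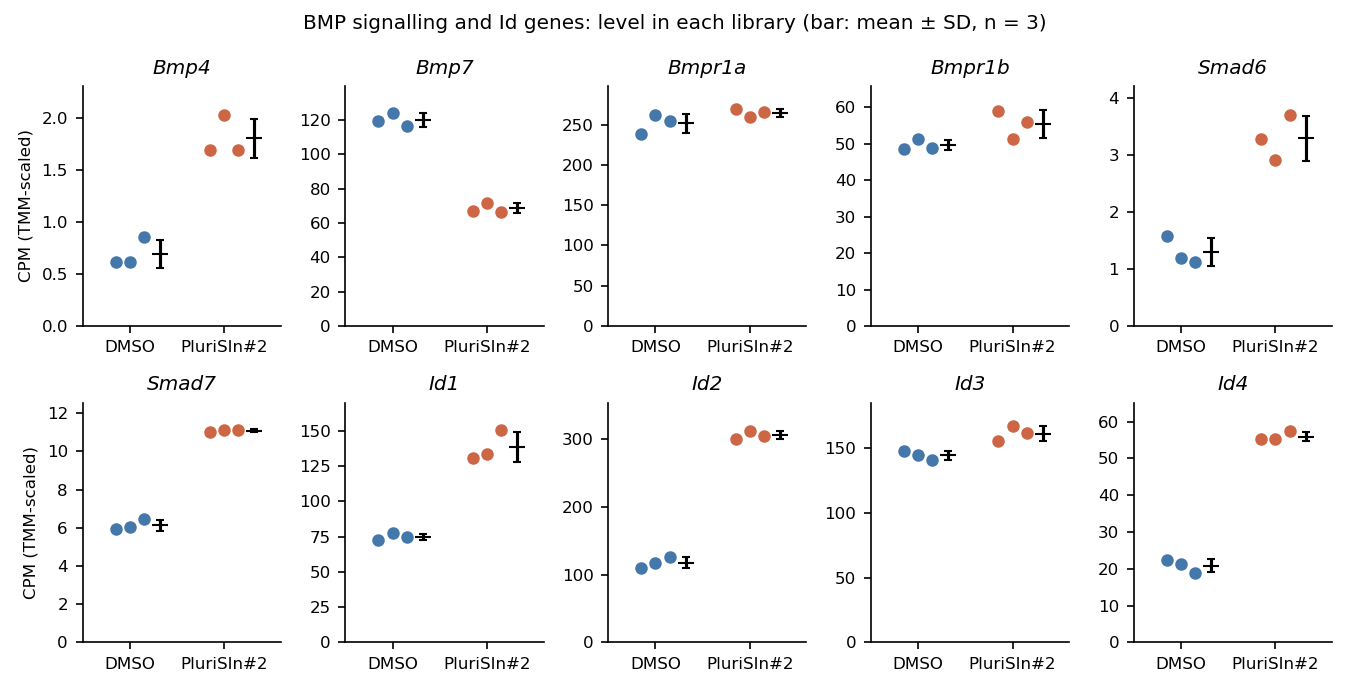
Level of each gene in CPM (vertical axis, from 0, a separate scale per gene) in the 3 DMSO libraries (blue) and the 3 PluriSIn#2 libraries (orange), with the mean ± SD beside the points. The treated points lie above the DMSO points for 8 genes and below them for Bmp7, and the groups overlap for Bmpr1a.

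The ligand genes moved in opposite directions and differed greatly in level. For each gene, values follow the order of replicates 1 to 3. Bmp7, a ligand that also forms mixed dimers with other BMPs, stood at 119, 124 and 117 CPM in DMSO and at 67.1, 71.9 and 66.6 CPM after treatment. Each treated library lay well below each DMSO library. The log2 fold change was -0.81 (SE 0.040, edgeR adjusted p = 1.66e-33), from 120 ± 3.84 to 68.5 ± 2.91 CPM. Bmp4, a ligand that binds Bmpr1a and Bmpr1b, stood at 0.616, 0.619 and 0.853 CPM in DMSO and at 1.69, 2.03 and 1.70 CPM after treatment. These values rest on 38 reads in the DMSO group and 96 in the treated group. The groups did not overlap, and the log2 fold change was 1.36 (SE 0.31, edgeR adjusted p = 4.55e-05). Counted per kb of exon, Bmp7 exceeded Bmp4 by 97.6-fold in DMSO and by 21.3-fold in PluriSIn#2. The log2 ratio of Bmp4 to Bmp7 per length rose in all 3 treated libraries, by 2.20 on average (exact permutation test, two-sided, p = 0.1, the smallest that 3 libraries against 3 allow, and 0.175 after Benjamini-Hochberg adjustment over the 7 ratios and shares tested). Bmp7 remained the more abundant of the pair.

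Of 13 other BMP ligand genes, 11 had a read and 4 passed the filter, of which 3 were called higher and 1 was not called (median log2 fold change 1.39). Over all genes tested, 41.7% were called higher. Bmp6, a ligand known for the control of iron balance, rose from 1.08 ± 0.313 to 11.0 ± 0.261 CPM (3.34 ± 0.17 SE on the log2 scale). Bmp2, a close relative of Bmp4, rose from 3.26 to 4.88 CPM (0.58), and Gdf10 from 0.658 to 3.07 CPM (2.20), while Bmp3 stood at 0.608 and 0.587 CPM. A ligand low in DMSO can pass the filter on its treated counts alone, which favours rises in this count. Without a filter on low counts 6 ligand genes were called higher, and DESeq2 called 5. Macrophage, fibroblast, endothelial and choroid plexus markers were higher in the same libraries, and their part in these rises was not tested.

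The type I receptor genes moved little. Bmpr1a, the more widely expressed type I receptor, stood at 239, 262 and 255 CPM in DMSO and at 269, 260 and 266 CPM in PluriSIn#2. The groups overlapped, since treated replicate 2 lay below DMSO replicate 2. Its log2 fold change of 0.07 (SE 0.028, 95% interval 0.02 to 0.13) had an edgeR adjusted p of 0.0147, and the call was lost with DESeq2 (adjusted p = 0.0886), without DMSO replicate 1 (0.303) and without PluriSIn#2 replicate 1 (0.0982). In the authors' deposited table its adjusted p was 0.0836; there 9 of the 10 genes were under 0.05, against 59.8% of all genes. Bmpr1b, the type I receptor more restricted to progenitors and skeletal tissue, stood at 48.7, 51.2 and 49.0 CPM in DMSO and at 59.0, 51.3 and 56.1 CPM after treatment. The lowest treated library barely cleared the highest DMSO library. Its log2 fold change was 0.16 (SE 0.051, edgeR adjusted p = 0.00317), and without PluriSIn#2 replicate 1 it was 0.11 and no longer called (adjusted p = 0.0753). With scaling by library totals the log2 fold changes of Bmpr1a and Bmpr1b were 0.14 and 0.23. Per kb of exon Bmpr1a exceeded Bmpr1b by 4.76-fold in DMSO and 4.49-fold in PluriSIn#2, and this ratio overlapped between groups (exact permutation p = 0.2, two-sided).

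Among 11 other receptor and co-receptor genes 10 were tested, of which 6 were called higher, 3 lower and 1 not called (median 0.49). Over all genes, 41.7% were called higher and 40.9% lower. The 3 falls in this list were all in type II receptors, which phosphorylate the type I receptors. Bmpr2 fell from 207 ± 7.20 to 179 ± 4.23 CPM (log2 fold change -0.21), Acvr2a from 46.7 to 37.5 CPM (-0.32), and Acvr2b from 8.16 ± 0.913 to 2.88 ± 0.0713 CPM (-1.50 ± 0.15 SE). The rises included the type I receptor gene Acvr1 (24.7 to 31.3 CPM, 0.34) and the BMP co-receptor genes Rgma (126 to 196 CPM, 0.64) and Rgmb (17.9 to 30.7 CPM, 0.78). Neo1, with the most reads of the list, encodes a receptor for these co-receptors and was not called, at 200 and 205 CPM, although scaling by library totals called it higher (0.11). Tgfbr3, the betaglycan gene, rose from 1.51 ± 0.422 to 17.6 ± 1.83 CPM (3.54 ± 0.15 SE), and Eng, the endoglin gene, from 1.05 to 6.78 CPM (2.69). Acvrl1, a receptor of endothelial cells, had 2 reads in the DMSO group and 134 in the treated group. Acvrl1 passed the filter on its treated counts alone, which favours rises in the count of 6. Eng and Acvrl1 are best known from endothelium, whose markers were higher in the same libraries, and the part of such cells in these rises was not tested.

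Of the other 6 Smad genes, 2 were called higher, 2 lower and 2 not called (median 0.01), where 41.7% of all genes were higher and 40.9% lower. The BMP-responsive Smads were split. Smad5, the most abundant of them at 53.0 FPKM (the authors' deposited fragments per kb of gene, scaled to depth) in DMSO, fell from 387 ± 1.70 to 157 ± 0.947 CPM (-1.30 ± 0.027 SE on the log2 scale, edgeR adjusted p = 3.02e-61). Smad9 rose from 9.76 ± 0.318 to 27.0 ± 0.751 CPM (1.47 ± 0.084 SE). Smad1 was not called, at 56.2 and 58.9 CPM, although scaling by library totals called it higher (0.14). In FPKM, Smad5 stood above Smad1 by a wide margin in DMSO (53.0 and 17.7) and close to it in PluriSIn#2 (22.6 and 19.4), and Smad9 went from 1.74 to 5.04. The shared partner Smad4 fell from 117 to 81.7 CPM (-0.52). Of the Smads of TGF-beta and activin, Smad3 rose from 70.9 to 135 CPM (0.93), and Smad2 was not called, at 91.7 and 88.8 CPM.

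Both inhibitory Smad genes rose from low levels. Smad6, which blocks BMP receptors and Smad1, stood at 1.57, 1.18 and 1.12 CPM in DMSO and at 3.27, 2.91 and 3.69 CPM in PluriSIn#2. These values rest on 70 reads in the DMSO group and 174 in the treated group, and the groups did not overlap. The log2 fold change was 1.35 (SE 0.23, edgeR adjusted p = 2.2e-07). Smad6 is also known from endothelium, whose summed markers stood at most at 5.99 CPM in DMSO and at least at 28.8 CPM after treatment, and their part in the rise was not tested. Smad7, which blocks BMP as well as TGF-beta receptors, stood at 5.94, 6.02 and 6.45 CPM in DMSO and at 11.0, 11.1 and 11.1 CPM in PluriSIn#2. The treated libraries were nearly equal and all above the DMSO libraries (0.85 ± 0.12 SE on the log2 scale, edgeR adjusted p = 2.48e-10). Per kb of exon, Smad7 exceeded Smad6 by 3.41-fold in DMSO and by 2.40-fold in PluriSIn#2, and the ratio overlapped between groups (exact permutation p = 0.2, two-sided).

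Id1, Id2 and Id3 had the highest levels per length of the 10 genes, and all 4 Id genes were higher in the treated libraries by very different amounts. Id2 stood at 110, 117 and 126 CPM in DMSO and at 300.4, 312 and 305 CPM in PluriSIn#2. Every treated library was more than 2-fold above every DMSO library, and the log2 fold change was 1.38 (SE 0.032, edgeR adjusted p = 5.48e-58), from 117 ± 8.09 to 306 ± 5.67 CPM. Id4, a gene of quiescent stem cells and astrocytes, stood at 22.5, 21.3 and 18.8 CPM in DMSO and at 55.1, 55.3 and 57.3 CPM after treatment. Its log2 fold change of 1.43 (SE 0.061, edgeR adjusted p = 9.65e-38) was the highest of the 10 genes, with Id2, Bmp4 and Smad6 within its error or close to it.

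Id1 and Id3 are the members of the family most often used as readouts of BMP signalling, and they differed here. Id1 stood at 72.5, 77.2 and 74.7 CPM in DMSO and at 131, 134 and 151 CPM in PluriSIn#2, with no overlap (0.89 ± 0.040 SE on the log2 scale, edgeR adjusted p = 5.23e-36). Id3 stood at 148, 144 and 141 CPM in DMSO and at 156, 167 and 161 CPM in PluriSIn#2. The Id3 groups did not overlap either, but the rise was 1.12-fold (0.16 ± 0.032 SE on the log2 scale, edgeR adjusted p = 6.03e-06). The 95% intervals of the log2 fold change, 0.81 to 0.97 for Id1 and 0.10 to 0.22 for Id3, lay apart. With scaling by library totals the value for Id3 was 0.23, and with treated replicate 1 alone it was 0.11 (edgeR adjusted p = 0.0451). Id genes are also known from astrocytes and endothelium. All 8 astrocyte markers were called higher in the same libraries, as were 41.7% of all genes, and the summed endothelial markers were higher too. The part of these cell types in the Id changes was not tested.

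The composition of the Id transcripts shifted accordingly. Reads were divided by merged exon length and expressed as a share of the 4 genes within each library, which does not depend on scaling between libraries. Id3 held 42.2, 40.2 and 39.4% in the DMSO libraries and 25.8, 26.6 and 25.0% in the treated libraries. Id2 held 22.9, 23.9 and 25.9% in DMSO and 36.5, 36.5 and 34.7% in PluriSIn#2. These shares did not overlap between groups, with mean differences of -14.8 points for Id3 and 11.7 points for Id2 (exact permutation test, two-sided, p = 0.1 and adjusted p = 0.175 for each). Id4 went from 2.73 ± 0.263% to 4.16 ± 0.0785%, also without overlap (exact permutation p = 0.1). Id1 held 32.5 ± 0.660% in DMSO and 34.1 ± 1.73% in PluriSIn#2, with overlap (exact permutation p = 0.2).

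**Figure D2:**
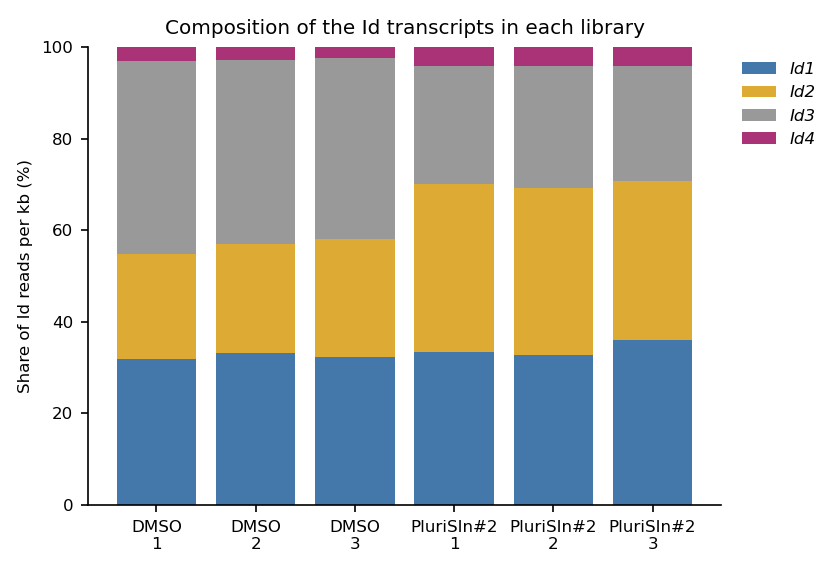
Share of each Id gene (vertical axis, percent) among Id reads per kb of merged exon in each of the 6 libraries. The Id3 segment spans between 39.4 and 42.2% in the DMSO libraries and between 25.0 and 26.6% in the treated ones, and the Id2 segment is wider in every treated library.

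In the authors' deposited FPKM, which are per length, the order in DMSO was Id3 (145 ± 3.86), Id2 (88.3 ± 5.99), Id1 (76.7 ± 2.47), Bmpr1a (44.0 ± 2.05), Bmp7 (31.3 ± 1.05), Id4 (15.0 ± 1.37), Bmpr1b (8.89 ± 0.257), Smad7 (1.32 ± 0.0579), Smad6 (0.416 ± 0.0785) and Bmp4 (0.334 ± 0.0648). In PluriSIn#2 it was Id2 (241 ± 4.22), Id3 (170 ± 5.91), Id1 (149 ± 11.5), Bmpr1a (48.5 ± 0.929), Id4 (42.5 ± 0.329), Bmp7 (18.7 ± 0.782), Bmpr1b (10.4 ± 0.744), Smad7 (2.51 ± 0.0146), Smad6 (1.11 ± 0.133) and Bmp4 (0.909 ± 0.0961). Neighbours in either order had separate ranges over the 3 libraries, except Smad6 and Bmp4, which overlapped in both groups. In these FPKM Id2 replaced Id3 at the top, and Id4 passed Bmp7. The place of Id1 depends on the gene length used. By merged exons it held 32.5% of the DMSO Id total and lay above Id2 (24.2%), whereas with the lengths implied by the deposited FPKM it held 23.6% and lay below Id2 (27.2%). By merged exons it lay above Id3 in all 3 treated libraries, and above Id2 in treated replicate 3 (36.1 and 34.7%), whereas with the other lengths it was below both in all 3.

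**Figure D3:**
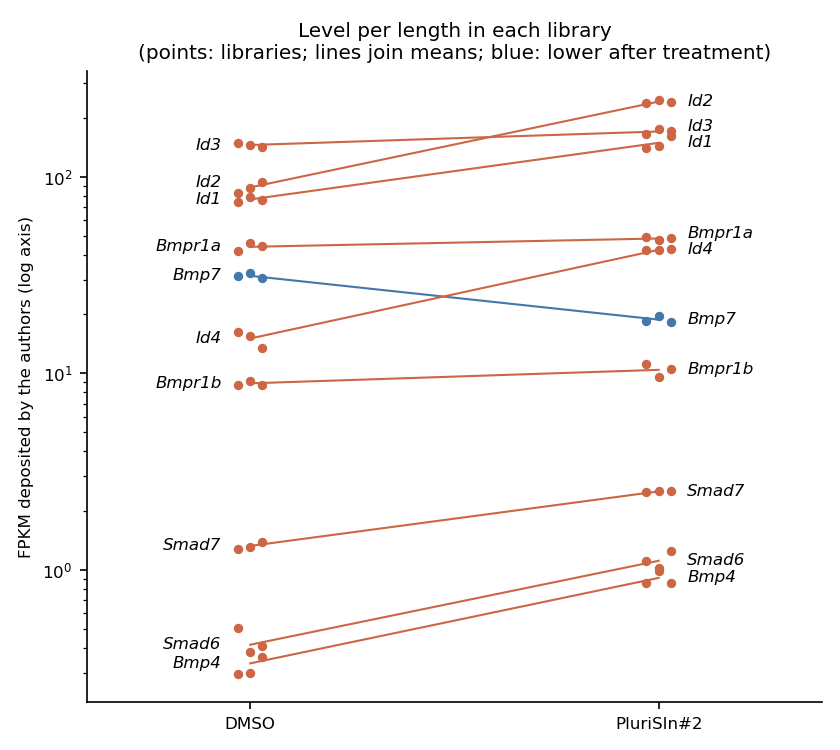
Deposited FPKM (vertical log axis) of the 10 genes in each DMSO and PluriSIn#2 library, with a line joining the 2 group means of each gene. Only the Bmp7 line descends, from 31.3 to 18.7 FPKM, and the lines of Id2 and Id4 cross those of Id3 and Bmp7.

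The coding sequences of the Id genes are related, which matters for whether reads can be assigned to 1 of them. The coding stretch of 123 bases most alike across the 4 genes is given for that reason. It encodes part of the helix-loop-helix domain, lies in 1 exon of each gene (GRCm38, from GENCODE release M21: Id1 at chr2:152736518-152736640, plus strand; Id2 at chr12:25095780-25095902, minus strand; Id3 at chr4:136144002-136144124, plus strand; Id4 at chr13:48261693-48261815, plus strand) and is written 5′ to 3′ along the transcript. Capitals mark the 70 bases identical in all 4.
Id1: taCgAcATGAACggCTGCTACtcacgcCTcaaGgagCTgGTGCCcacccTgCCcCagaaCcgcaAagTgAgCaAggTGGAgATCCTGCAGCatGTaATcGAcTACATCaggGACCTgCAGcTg
Id2: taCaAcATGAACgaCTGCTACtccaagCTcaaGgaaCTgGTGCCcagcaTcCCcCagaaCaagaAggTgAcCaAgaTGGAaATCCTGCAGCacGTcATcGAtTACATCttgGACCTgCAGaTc
Id3: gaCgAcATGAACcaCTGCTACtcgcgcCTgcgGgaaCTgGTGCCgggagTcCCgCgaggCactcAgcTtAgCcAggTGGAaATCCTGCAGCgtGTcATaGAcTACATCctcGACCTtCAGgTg
Id4: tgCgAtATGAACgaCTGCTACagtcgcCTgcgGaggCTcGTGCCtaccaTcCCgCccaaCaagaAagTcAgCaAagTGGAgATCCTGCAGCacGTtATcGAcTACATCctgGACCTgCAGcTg
Identity in this stretch ran from 70.7% (Id3 with each of the other genes) to 80.5% (Id1 with Id2). Over whole transcripts, the longest run of identical bases shared by 2 Id genes was 19, between Id2 and Id3. The other pairs shared at most 28 bases (Bmp4 and Bmp7), 16 (Bmpr1a and Bmpr1b) and 13 (Smad6 and Smad7). In the annotation, other genes overlap the exons of Id4 (2 genes on the opposite strand, 2.13% and 4.44% of its merged exon length), Bmp4 (1 gene, 3.96%) and Bmpr1a (1 gene, 4.57%). Reads from those stretches may be mixed, since it is not known here whether the counting used strand.

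Promoter windows are shown for Smad6, Id2, Id3 and Id4, the classic BMP-Smad targets of the set for which a window was found. The part of BMP signalling in their changes was not tested. RefSeq windows on GRCm38.p6, from 250 bases before to 50 after a transcription start, were matched by symbol for 7 of the 10 genes, 9 windows in all. They were searched on both strands for GGCGCC and GGAGCC, GC-rich elements bound by BMP Smads, for CAGAC, a Smad4 box, and for GTCTAGAC, the palindromic Smad-binding element. No match in these windows overlaps another. The Id2 and Id3 windows lie inside the GENCODE spans given above, so their starts are not the outermost starts in GENCODE. The start used for Id4 lies before its GENCODE span. The first 260 bases of each window are printed 5′ to 3′ along the gene, with matches in capitals (Smad6 at chr9:64022050-64022309, minus strand; Id2 at chr12:25096083-25096342, minus strand; Id3 at chr4:136143572-136143831, plus strand; Id4 at chr13:48260866-48261125, plus strand).
Smad6: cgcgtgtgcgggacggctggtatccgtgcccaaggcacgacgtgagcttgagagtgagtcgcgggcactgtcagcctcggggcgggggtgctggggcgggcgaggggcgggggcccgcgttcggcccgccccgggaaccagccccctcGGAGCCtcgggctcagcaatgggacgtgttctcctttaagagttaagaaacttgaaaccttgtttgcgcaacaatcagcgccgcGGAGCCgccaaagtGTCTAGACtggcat
Id2: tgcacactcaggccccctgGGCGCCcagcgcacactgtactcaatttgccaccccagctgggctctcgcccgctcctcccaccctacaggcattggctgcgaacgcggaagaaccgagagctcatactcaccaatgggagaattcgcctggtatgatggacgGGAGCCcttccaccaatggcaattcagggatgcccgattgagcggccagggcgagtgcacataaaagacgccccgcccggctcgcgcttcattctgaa
Id3: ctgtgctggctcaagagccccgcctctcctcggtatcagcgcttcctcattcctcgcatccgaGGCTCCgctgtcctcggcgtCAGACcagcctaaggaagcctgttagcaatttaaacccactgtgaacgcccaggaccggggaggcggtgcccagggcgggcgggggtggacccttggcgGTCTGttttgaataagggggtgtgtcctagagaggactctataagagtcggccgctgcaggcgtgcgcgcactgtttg
Id4: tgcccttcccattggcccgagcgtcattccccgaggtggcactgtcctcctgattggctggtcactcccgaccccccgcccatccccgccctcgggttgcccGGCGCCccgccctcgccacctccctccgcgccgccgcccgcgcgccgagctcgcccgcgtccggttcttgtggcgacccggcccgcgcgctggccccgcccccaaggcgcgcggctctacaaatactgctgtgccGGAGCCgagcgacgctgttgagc
The Smad6 window holds GTCTAGAC from 4 bases before the start to base 3 after it (the first transcribed base counted as 0) and GGAGCC 2 times. Among all 32817 windows of this length, 70 (0.213%) hold GTCTAGAC. The Id2 and Id4 windows each hold GGCGCC, found in 11.9% of all windows, and GGAGCC, found in 30.8%. The Id3 window holds GGAGCC on the reverse strand and CAGAC 2 times, once on each strand, and CAGAC is found in 49.6% of all windows. The Bmpr1a window also holds GGCGCC, the Bmp4 window holds GGAGCC, and of the 3 Bmpr1b windows 2 hold GGAGCC and 2 hold CAGAC. The windows are rich in G and C (63.3% for Id2, 73.3% for Id4, 60% for Id3 and 66.3% for Smad6, against a median of 52.7% over all windows), and windows with GGCGCC have a median of 66.5%. These matches are a description of letters and not of bound sites.

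Of 15 other reported targets of BMP signalling, 9 were tested and all 9 were called higher (41.7% of all genes were; median log2 fold change 1.97), while 6 with few reads were not tested. Msx1, Msx2, Dlx5 and Tbx2 lay under 1 CPM in DMSO, and a gene low in DMSO can pass the filter on its treated counts alone, so the count is no support for a rise of the list. The transcription factor gene Atoh8 rose from 9.37 ± 1.30 to 36.8 ± 0.300 CPM (1.97 ± 0.080 SE) and the Notch and BMP target Hey1 from 43.2 ± 0.909 to 98.4 ± 2.36 CPM (1.19 ± 0.044 SE). Junb rose from 29.6 to 66.6 CPM (1.17), Runx2 from 1.95 to 4.41 CPM (1.18) and the homeobox gene Msx1 from 0.591 to 4.18 CPM (2.82). Gfap, the astrocyte intermediate filament gene with the most reads of the list, rose from 42.0 ± 2.17 to 299 ± 0.634 CPM (2.84 ± 0.036 SE), and it is also in the astrocyte marker list, all 8 of whose genes rose. Msx1 and Runx2 are also known from mesenchymal cells. Summed fibroblast and mural markers were higher in the same libraries, and the part of other cell types was not tested.

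Secreted antagonists and modulators changed in both directions. Of 23 genes 17 were tested, of which 9 were called higher, 3 lower and 5 not called (median 0.36). For comparison, 82.6% of all genes were called, 41.7% higher and 40.9% lower. A gene low in 1 group can pass the filter on the counts of the other group alone. This holds for the called genes Sostdc1 (18 reads in DMSO, 216 in PluriSIn#2), Tll1 (18 and 117), Kcp (23 and 56) and Vwc2 (105 and 18). The counts and the median are therefore no support for a shift of the list. Chrdl1, a chordin-like BMP antagonist, fell from 67.8 ± 3.41 to 11.0 ± 1.59 CPM (-2.63 ± 0.068 SE on the log2 scale). Nbl1, an antagonist of the DAN family, rose from 54.8 ± 1.40 to 153 ± 6.76 CPM (1.48 ± 0.039 SE). Bmp1, with the most reads of the list, encodes a protease that cleaves chordin and procollagen, and it rose from 156 to 253 CPM (0.70). The noggin gene Nog (5.53 and 6.15 CPM, edgeR adjusted p = 0.299) and the chordin gene Chrd (4.69 and 3.96 CPM, edgeR adjusted p = 0.152) were not called.

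Among 24 intracellular regulators, all tested, 9 were called higher, 12 lower and 3 not called (median -0.14). These counts lie near the shares over all genes, 82.6% called, 41.7% higher and 40.9% lower. Skil, which encodes the Smad corepressor SnoN, fell from 56.3 ± 2.79 to 18.9 ± 0.556 CPM (-1.58 ± 0.061 SE), and Fkbp1a, whose product holds type I receptors inactive, fell from 417 ± 7.39 to 330 ± 5.30 CPM (-0.34). Zfp423, a zinc-finger partner of BMP Smads, rose from 23.5 ± 0.962 to 56.1 ± 2.11 CPM (1.26 ± 0.058 SE), and the antiproliferative gene Tob1 from 59.3 to 129 CPM (1.13). Bambi, a decoy receptor gene and itself a BMP target, rose from 6.77 to 10.6 CPM (0.64). The Smad ubiquitin ligase genes parted slightly, with Smurf1 at 0.39 and Smurf2 at -0.17 on the log2 scale.

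**Figure D4:**
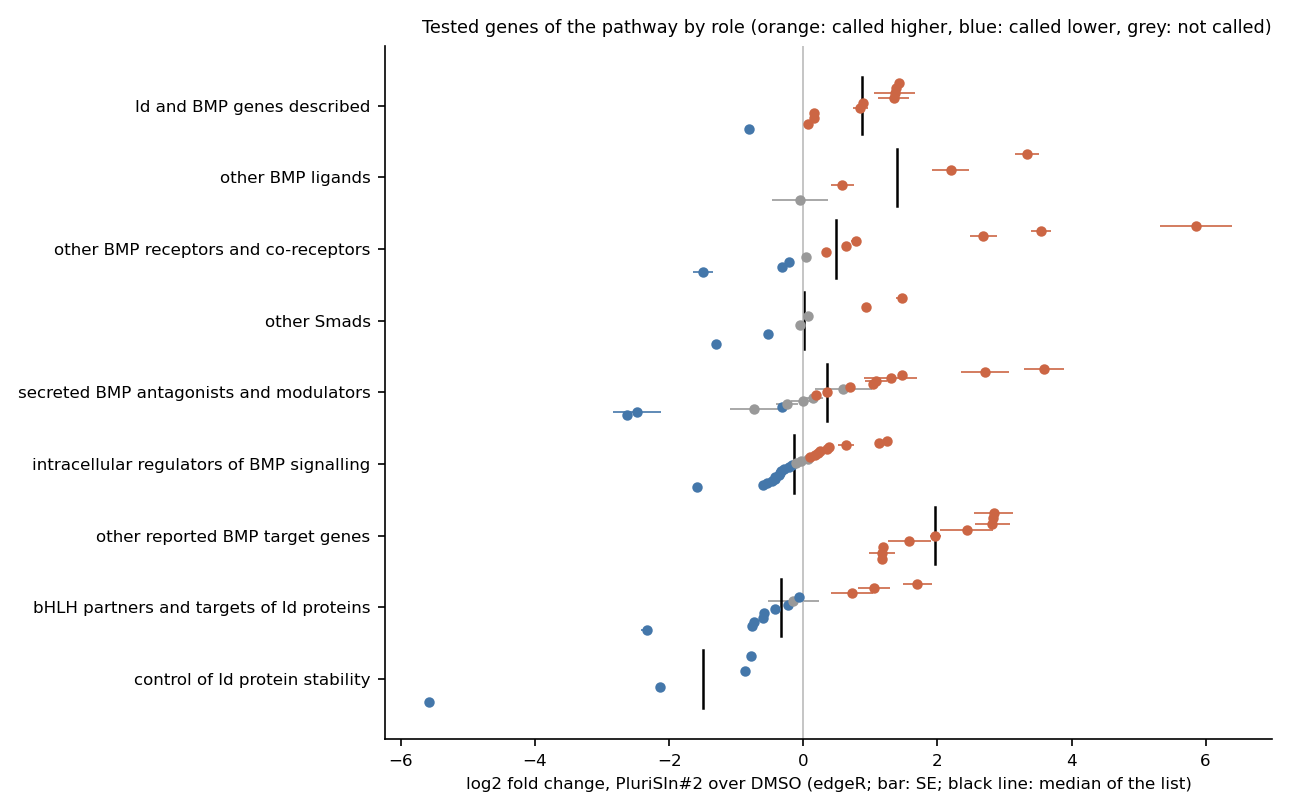
Log2 fold change of PluriSIn#2 over DMSO (horizontal axis, edgeR, bar: SE) for the tested genes of each role, with the list's median as a black line. Orange, blue and grey points are called higher, called lower and not called; all 9 tested target genes lie right of 0, and all 4 genes of Id protein stability lie left of it.

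Of 16 bHLH partner and target genes 12 were tested, of which 8 were called lower, 3 higher and 1 not called (median -0.33), where 82.6% of all genes were called and 40.9% were lower. All 3 E-protein genes, whose products Id proteins bind directly, fell: Tcf3 from 250.4 ± 4.52 to 147 ± 3.60 CPM (-0.76), Tcf12 from 509 ± 2.96 to 306 ± 5.30 CPM (-0.73) and Tcf4 from 682 ± 13.9 to 508 ± 12.4 CPM (-0.43). The Notch effector Hes5 fell from 39.2 ± 1.91 to 7.77 ± 0.0838 CPM (-2.33 ± 0.081 SE). Olig1, a gene of oligodendrocyte precursors with the most reads of the list, was at 1737 and 1655 CPM with overlapping groups (log2 fold change -0.07), and its call was lost with scaling by library totals (0.00021, edgeR adjusted p = 0.992). The neuronal gene Neurod1 rose from 1.32 to 4.31 CPM (1.70). All 4 genes that control Id protein stability were called lower, as were 40.9% of all genes. Usp1, whose deubiquitinase is reported to stabilise Id proteins, fell from 159 ± 7.10 to 36.0 ± 2.00 CPM (-2.14 ± 0.043 SE). The ubiquitin ligase gene Huwe1 fell from 647 ± 11.7 to 356 ± 5.08 CPM (-0.86), and the anaphase-promoting complex activators Fzr1 and Cdc20 fell by 0.78 and 5.58 on the log2 scale. Cdc20 and Usp1 are also genes of dividing cells. RNA levels do not give the amount of any Id protein.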

How the data were processed

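The members and gene lists were chosen with earlier results of these data known. The submitters' processing notes name mm10, STAR, HTSeq and DESeq, with versions, annotation and strand setting not given in the sources used here. Whole-number read counts per gene were deposited by the authors. The FPKM were made by the authors per length and depth. The authors' deposited log2 fold changes and p-values were used only where named.

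Counts were tested with edgeR 4.0.16 in R 4.3.3 (filterByExpr, TMM, quasi-likelihood F test, group as the only term, Benjamini-Hochberg over 14417 genes, threshold 0.05). On simulated counts with 50 changed genes per fold size, edgeR recovered 54% of 1.2-fold and 98% of 2-fold changes. It also called 11 unchanged genes, with 13844 genes tested. The simulated spread was set to 1 value for all genes and not estimated from these libraries, so these results depend on that choice. Far fewer genes changed in that simulation than were called here, so it does not check the scaling when most genes move. Each SE was derived from the log2 fold change and the F statistic of its test and was not fitted directly. Intervals are 95% normal intervals from this SE and are approximate. CPM use TMM-scaled library totals of 6 libraries, 3 per group. Ratios and shares used exact permutation tests (scipy 1.17.1). Alternatives covered scaling, filters, DESeq2 1.42.0, each library left out, a replicate block and treated replicate 1 alone. Genes were named by rule: the 10 members, Top2a, in each pathway list the gene of highest CPM and the largest rise and fall among genes of at least 5 CPM, and in each marker list the gene of highest CPM and any at 0 reads; other list genes were named after their values were seen. Exon lengths come from GENCODE M21 (GRCm38, the same build as mm10). No library was a copy of another: the chi-square per degree of freedom was 1.57 to 2.27 within groups.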

Additional observations from a re-analysis of the deposited data

How the results depend on the processing

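Across 13 alternatives, Id1, Id2, Id3, Id4, Bmp4, Bmp7, Smad6 and Smad7 kept their direction and their side of the threshold. The log2 fold change ranged from 0.81 to 0.96 for Id1, 1.33 to 1.45 for Id2, 0.11 to 0.23 for Id3, 1.35 to 1.49 for Id4, 1.27 to 1.53 for Bmp4, -0.84 to -0.74 for Bmp7, 1.25 to 1.50 for Smad6 and 0.82 to 0.92 for Smad7. Bmpr1a was no longer called with DESeq2 (0.066, adjusted p = 0.0886), and leaving out 1 library at a time moved it from 0.030 to 0.095 and Bmpr1b from 0.11 to 0.21. The genes called higher were 8 with DESeq2, 8 without DMSO replicate 1, 7 without PluriSIn#2 replicate 1, and 9 otherwise; the gene called lower was 1 throughout. Other ligand genes called higher were 3 or 4 under every alternative except DESeq2 (5) and no filter on low counts (6), where more genes are tested. The difference in the Id1 share turned to -0.016 points with raw counts (exact permutation p = 1). The replicate numbers gave no clear sign of pairing. Deviations of same-numbered libraries correlated at 0.00471, 0.0203 and -0.00433, and those of other numbers at -0.0229 to 0.0184. DMSO replicates 1 and 2 correlated best with their own number, and DMSO replicate 3 with another. With the replicate block 5984 genes were called higher and 5867 lower, against 6015 and 5900 without it, and the 10 genes kept their calls. Genes at few reads, such as Bmp4 and Smad6, are measured in coarse steps, and SEs are larger for them.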
